A study of Homo sapiens with 60 samples.

Results

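The 9 genes described here encode the quinone reductase NQO1, the thioredoxin system (TXN, TXNRD1, SRXN1 and PRDX1), the oxidative-stress genes OSGIN1 and PIR, and NRF2 (gene symbol NFE2L2) with its inhibitor KEAP1. They were chosen by symbol from the 60675 genes of the count table, with earlier results of these data known. Their counts of calls are therefore not those of a neutral choice. Each symbol matched 1 row, and all 9 were among the 16978 genes that passed the low-count filter. NRF2 is a transcription factor that the ubiquitin ligase adaptor KEAP1 normally keeps short-lived. When electrophiles or oxidants modify cysteines of KEAP1, NRF2 accumulates, pairs with small MAF proteins and switches on genes that carry antioxidant response elements. In gut epithelium, as in liver, this program supplies reductases, glutathione and thioredoxin with their NADPH, and many plant compounds are known to set it off.

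The cells were HT29, an established line from a human colorectal adenocarcinoma, and were profiled by RNA-seq 24 h after an herbal ethanol extract or DMSO vehicle was added. Polygalae Radix was given at 380, 76 and 15.2 µg/mL and Aucklandiae Radix at 370, 74 and 14.8 µg/mL, with 2 libraries per dose. Menthae Herba, Saposhnikoviae Radix and the multi-herb formulas Saengmaek-san and Guibi-tang were given at 500, 100 and 20 µg/mL with 3 libraries per dose, and the formula Soyo-san at the same doses with 2. The formula Okbyeongpung-san, also at 500, 100 and 20 µg/mL, has 1 library per dose, so its levels are given without a test. These doses are called high, medium and low, and per the design text the high dose was the IC20 (the concentration that inhibits by 20%) where that lay under 500 µg/mL. The vehicle has 3 libraries and is labelled 0.1% DMSO for the samples but 2% in the series' design text, which the files do not settle. All cells are of 1 line. Nothing in the labels says that replicates came from separate cultures, and a p-value therefore reflects variation among libraries that may be technical alone.

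Levels are CPM (counts scaled to a common library total, corrected with TMM factors). The totals of the 59 libraries used ran from 18690501 to 36796414 expected counts. The library labelled Saposhnikoviae Radix low replicate 2 was left out: it stood apart, with 17079221 counts, 3.33% mitochondrial counts against 6.19% to 12.3% in the others, and a highest correlation of 0.848 with a library of its group, where the lowest such value of the others was 0.995. With it in the fit, 27 of the 63 tests of the 9 genes at high dose against the vehicle passed, where 0.287% to 39.6% of all genes were called per extract. Without it 44 passed, where 10.2% to 62% were. The library names place extracts in numbered sets of 2 extracts each, while the vehicle has a prefix of its own, so an extract's difference from the vehicle cannot be told apart from a difference between sets. Comparisons of doses of 1 extract, and of 2 extracts of 1 set, do not use the vehicle. Of 12 colon epithelium markers 11 averaged above 1 CPM in the vehicle, whereas 6 of 8 fibroblast, 6 of 8 blood cell and 7 of 8 hepatocyte markers stayed under 1 CPM in all 59 libraries.

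The promoters are shown because NRF2 acts through the antioxidant response element, whose core TGACNNNGC was searched on both strands. RefSeq's promoter table (GRCh38.p14, 250 bases before to 50 after each start) held 11 promoters of 8 of the 9 genes, without PRDX1. The core was in 4 of them, from TXNRD1, PIR and KEAP1, and in 13.3% of all 35116 promoters of that length in the table. Positions are counted from the start of transcription as base 1, with -1 just before it. Promoter 1 of TXNRD1 (chr12:104215529-104215828, plus strand) held the core at -99 to -91, and on the opposite strand at -8 to 1. In promoter 2 of TXNRD1 (chr12:104286782-104287081, plus strand) it lay on the opposite strand at -102 to -94. The PIR promoter (chrX:15493284-15493583, minus strand) had it on the opposite strand at 27 to 35. Promoter 2 of KEAP1 (chr19:10502722-10503021, minus strand) had it at -54 to -46 and, on the opposite strand, at -31 to -23. Capitals mark these matches.
TXNRD1 promoter 1: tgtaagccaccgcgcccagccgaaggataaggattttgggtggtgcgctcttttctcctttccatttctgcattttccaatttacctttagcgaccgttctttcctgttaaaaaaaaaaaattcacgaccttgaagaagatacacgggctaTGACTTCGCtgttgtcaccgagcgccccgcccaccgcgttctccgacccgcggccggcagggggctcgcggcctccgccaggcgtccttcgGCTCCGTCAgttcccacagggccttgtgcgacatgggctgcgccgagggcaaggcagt
TXNRD1 promoter 2: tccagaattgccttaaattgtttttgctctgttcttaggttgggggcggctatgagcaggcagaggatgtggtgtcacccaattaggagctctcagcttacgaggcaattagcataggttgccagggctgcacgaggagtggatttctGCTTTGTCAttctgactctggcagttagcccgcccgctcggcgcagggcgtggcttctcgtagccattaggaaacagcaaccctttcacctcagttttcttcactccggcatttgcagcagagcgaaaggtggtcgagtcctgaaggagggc
PIR promoter: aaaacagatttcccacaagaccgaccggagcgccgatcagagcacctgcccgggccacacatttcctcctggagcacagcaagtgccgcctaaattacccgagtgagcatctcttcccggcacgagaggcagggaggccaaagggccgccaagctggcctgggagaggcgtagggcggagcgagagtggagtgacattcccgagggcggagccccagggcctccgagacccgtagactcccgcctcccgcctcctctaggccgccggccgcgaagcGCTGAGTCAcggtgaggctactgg
KEAP1 promoter 2: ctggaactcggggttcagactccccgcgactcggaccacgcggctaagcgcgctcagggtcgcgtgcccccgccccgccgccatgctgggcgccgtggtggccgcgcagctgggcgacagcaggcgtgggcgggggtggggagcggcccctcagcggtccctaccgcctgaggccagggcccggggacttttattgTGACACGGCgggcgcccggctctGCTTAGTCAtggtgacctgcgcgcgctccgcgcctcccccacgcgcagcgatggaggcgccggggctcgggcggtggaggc

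The shorter core of the xenobiotic response element, GCGTG, through which the aryl hydrocarbon receptor acts, was in 8 of the 11 promoters and 7 of the 8 genes, and in 36.5% of all promoters. A match is a string of letters and not a measured binding site. Only these 300 bases and these exact strings were searched, so a promoter without a match is not shown to lack the element.

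In the vehicle the 9 genes covered a wide range of levels. Per kilobase of exon (the union of a gene's exons), PRDX1 stood highest at 317 CPM per kilobase, followed by TXN with 283 and NQO1 with 153 CPM per kilobase. TXNRD1 had 49.3, SRXN1 25.1, NFE2L2 20.5 and KEAP1 15.8 CPM per kilobase. PIR and OSGIN1 were lowest, at 5.18 and 4.36 CPM per kilobase. The union counts every annotated exon, 6708 bases for TXNRD1, 5979 for NFE2L2 and 2698 for SRXN1, so the order depends on the annotation. Without division by length NFE2L2 had a vehicle mean of 122 CPM and SRXN1 of 67.8 CPM.

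At high dose against the vehicle, 44 of 63 tests of the 9 genes passed (quasi-likelihood test of edgeR, p under 0.05 after Benjamini-Hochberg adjustment over all genes tested), 40 of them higher and 4 lower with the extract. All 4 lower calls came from Polygalae Radix. With Aucklandiae Radix all 9 genes were higher, where 62% of all genes were called and 31% were called higher. Polygalae Radix had 5 genes higher and 4 lower, where 36.5% of all genes were called, 16.8% higher and 19.6% lower. Guibi-tang had 8 genes higher, where 29.4% of all genes were called and 14.7% were higher. Menthae Herba had 7 higher (28.2% of all genes called, 13.7% higher) and Soyo-san also 7 (17.7% called, 8.44% higher). Saengmaek-san (12% called, 5.79% higher) and Saposhnikoviae Radix (10.2% called, 5.18% higher) had 2 each, NQO1 and TXNRD1 in both cases. These 7 comparisons share the 3 vehicle libraries. The mitochondrial share of counts was 6.19% and 6.52% in the Aucklandiae Radix high libraries, the lowest of the 59, against 9.46% to 12.3% in the vehicle, and 7.74% to 8.47% with Guibi-tang high. Its part in the results was not tested. In bulk RNA, fewer cells of a type and less RNA per cell cannot be told apart.

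**Figure D1:**
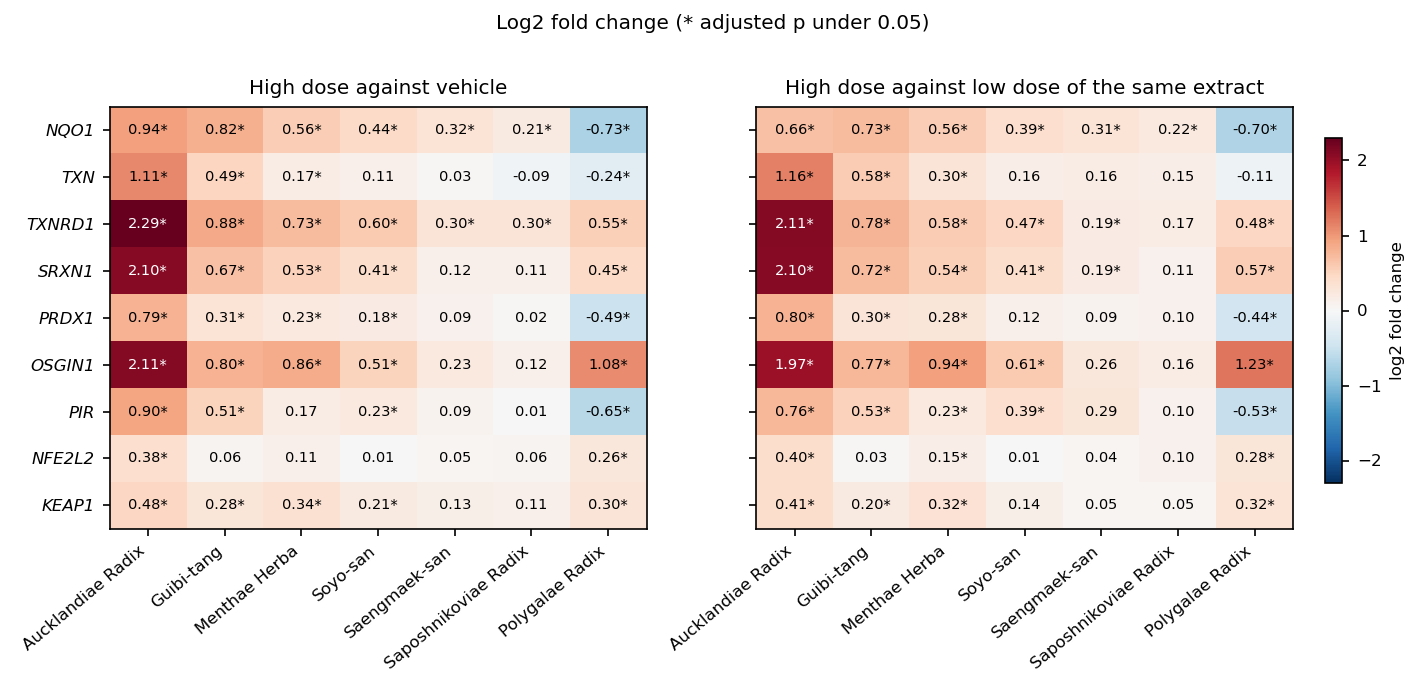
Log2 fold changes of the 9 genes (rows) for 7 extracts (columns), high dose against vehicle on the left and high against low dose of the same extract on the right, with an asterisk where the edgeR adjusted p was under 0.05. The Aucklandiae Radix column is red throughout, from 0.38 to 2.29 against the vehicle, while the Polygalae Radix column holds both signs, from -0.73 to 1.08.

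NQO1 (ENSG00000181019, GRCh38 chromosome 16, 69706996 to 69726951, minus strand) reduces quinones straight to hydroquinones with NADH or NADPH. It had 292 and 308 CPM in the Polygalae Radix high libraries, against 504, 497 and 493 CPM in vehicle libraries. Aucklandiae Radix high gave 996 and 916 CPM, Guibi-tang high 855, 896 and 893 CPM and Menthae Herba high 711, 750.1 and 745 CPM. Both Polygalae Radix high libraries lay below every vehicle library, and every high-dose library of the other extracts lay above them. NQO1 fell with Polygalae Radix, with a log2 fold change of -0.73 ± 0.04 SE, adjusted p 3.98e-18. It rose by 0.94 ± 0.04 SE with Aucklandiae Radix (adjusted p 1.41e-23), 0.82 ± 0.04 with Guibi-tang (adjusted p 2.53e-21) and 0.56 ± 0.04 with Menthae Herba (adjusted p 1.30e-15). The smaller rises were 0.44 with Soyo-san, 0.32 with Saengmaek-san and 0.21 with Saposhnikoviae Radix. Of the 9 genes, NQO1 and TXNRD1 were called with all 7 extracts at high dose against the vehicle, NQO1 in both directions. The antisense gene AC092115.2 that overlaps it held counts equal to 0.818% of those of NQO1.

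In the order of its 25 group means NQO1 ran from 956 CPM in Aucklandiae Radix high to 300.1 CPM in Polygalae Radix high, a 3.19-fold span, and the vehicle ranked 20th of 25. Of the 24 pairs of neighbours in this order 12 had overlapping libraries, the most separated order of the 9 genes. The 4 highest groups, Aucklandiae Radix high, Guibi-tang high, Aucklandiae Radix medium and Menthae Herba high, did not overlap with their neighbours. Nor did the 2 lowest, Polygalae Radix medium at 424 CPM and Polygalae Radix high.

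TXNRD1 (ENSG00000198431, chromosome 12, 104215779 to 104350305, plus strand) encodes the cytosolic selenoenzyme that recharges thioredoxin with NADPH. It had 1578 and 1643 CPM in Aucklandiae Radix high libraries, against 333, 342 and 316 CPM in vehicle libraries. Guibi-tang high had 592, 615 and 613 CPM, Menthae Herba high 548, 536 and 559 CPM and Polygalae Radix high 477 and 493 CPM. No high-dose library of any extract overlapped with the vehicle. The log2 fold change was 2.29 ± 0.04 SE, adjusted p 5.38e-36 with Aucklandiae Radix, a 4.87-fold rise. It was 0.88 ± 0.04 SE, adjusted p 3.03e-21 with Guibi-tang, 0.73 ± 0.04 SE, adjusted p 2.82e-18 with Menthae Herba and 0.55 ± 0.04 SE, adjusted p 6.86e-14 with Polygalae Radix. Soyo-san gave 0.60, Saengmaek-san 0.30 and Saposhnikoviae Radix 0.30, all called higher. Over the 7 extracts the low dose was 0.07 to 0.17 above the vehicle, called with 3 extracts and not passed with 4. With the vehicle under a library prefix of its own, this cannot be told apart from a difference between sets. High against low dose, TXNRD1 did not pass with Saposhnikoviae Radix (0.17). The vehicle had the lowest mean of the 25 groups, and 23 groups lay entirely above its highest library. The exception was Polygalae Radix low, at 341 and 352 CPM. RPL18AP3, a processed pseudogene on the same strand within TXNRD1, held counts equal to 3.04% of those of TXNRD1 and was at -0.39 with Aucklandiae Radix high (adjusted p 0.0974).

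TXN (ENSG00000136810, chromosome 9, 110243811 to 110256640, minus strand) encodes thioredoxin itself, the small protein that reduces disulfides in other proteins. It had 737 and 656 CPM in Aucklandiae Radix high libraries, against 276, 336 and 357 CPM in the vehicle, where replicate 1 was lower than the other two. Guibi-tang high had 436, 457 and 469.5 CPM and Menthae Herba high 342, 376 and 376 CPM, while Polygalae Radix high had 275 and 271 CPM. Aucklandiae Radix and Guibi-tang libraries lay above all vehicle libraries, those of Menthae Herba overlapped with them, and those of Polygalae Radix lay just below the lowest one. TXN rose by 1.11 ± 0.07 SE, adjusted p 9.87e-19, with Aucklandiae Radix and by 0.49 ± 0.06 SE, adjusted p 2.40e-08, with Guibi-tang. The call for Menthae Herba, 0.17 (adjusted p 0.0259), was lost without vehicle replicate 1 (0.07, adjusted p 0.395), without Menthae Herba high replicate 2 (0.15, adjusted p 0.102) or without replicate 3 (0.15, adjusted p 0.104). That for Polygalae Radix, -0.24 (adjusted p 0.00421), was lost without vehicle replicate 3 (-0.16, adjusted p 0.067), without Polygalae Radix high replicate 3 (-0.22, adjusted p 0.065) and with scaling by total counts (-0.10, adjusted p 0.257). Soyo-san (0.11), Saengmaek-san (0.03) and Saposhnikoviae Radix (-0.09) did not pass, but for Saposhnikoviae Radix TXN passed without vehicle replicate 1 (-0.19, adjusted p 0.0243). The 7 TXN pseudogenes in the table held counts equal to 0.0166% of those of TXN.

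SRXN1 (ENSG00000271303, chromosome 20, 646615 to 653370, minus strand) encodes sulfiredoxin, which repairs overoxidised peroxiredoxins. It had 294 and 287 CPM in Aucklandiae Radix high libraries, against 70.5, 65.2 and 67.7 CPM in the vehicle. Guibi-tang high had 105, 109 and 109.8 CPM, Menthae Herba high 95.6, 99.2 and 99.4 CPM, Polygalae Radix high 93.5 and 91.6 CPM and Soyo-san high 92.5 and 87.7 CPM. In these 5 groups every library lay above the vehicle. The log2 fold changes were 2.10 ± 0.05 SE, adjusted p 4.09e-34 with Aucklandiae Radix, 0.67 with Guibi-tang, 0.53 with Menthae Herba, 0.45 ± 0.05 SE, adjusted p 3.88e-10 with Polygalae Radix and 0.41 with Soyo-san, all called. Saengmaek-san (0.12, adjusted p 0.0597) and Saposhnikoviae Radix (0.11, adjusted p 0.0921) did not pass. Saengmaek-san passed without vehicle replicate 1 (0.15, adjusted p 0.036) or its own replicate 3 (0.16, adjusted p 0.0249).

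PRDX1 (ENSG00000117450, chromosome 1, 45511036 to 45523047, minus strand) encodes a cytosolic peroxiredoxin that removes hydrogen peroxide and is recharged by thioredoxin. It had 347 and 340.0 CPM in Polygalae Radix high libraries and 859.8 and 811 CPM in Aucklandiae Radix high libraries, against 480.5, 489.5 and 475 CPM in the vehicle. Guibi-tang high had 584, 597 and 615 CPM and Menthae Herba high 525, 570.2 and 602 CPM. None of these groups overlapped with the vehicle, and Polygalae Radix high alone among them lay below it. PRDX1 fell with Polygalae Radix (-0.49 ± 0.05 SE, adjusted p 2.15e-10) and rose with Aucklandiae Radix (0.79 ± 0.05 SE, adjusted p 5.28e-18), Guibi-tang (0.31 ± 0.05 SE, adjusted p 7.22e-07) and Menthae Herba (0.23 ± 0.05 SE, adjusted p 0.000106). The Soyo-san call, 0.18 (adjusted p 0.00934), was lost without Soyo-san high replicate 2 (0.14, adjusted p 0.173). Saengmaek-san (0.09) and Saposhnikoviae Radix (0.02) did not pass. MMACHC, which overlaps PRDX1 on the opposite strand, held counts equal to 3.34% of those of PRDX1 and was at -0.15 with Polygalae Radix and -0.14 with Aucklandiae Radix (adjusted p 0.0685 and 0.054).

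**Figure D2:**
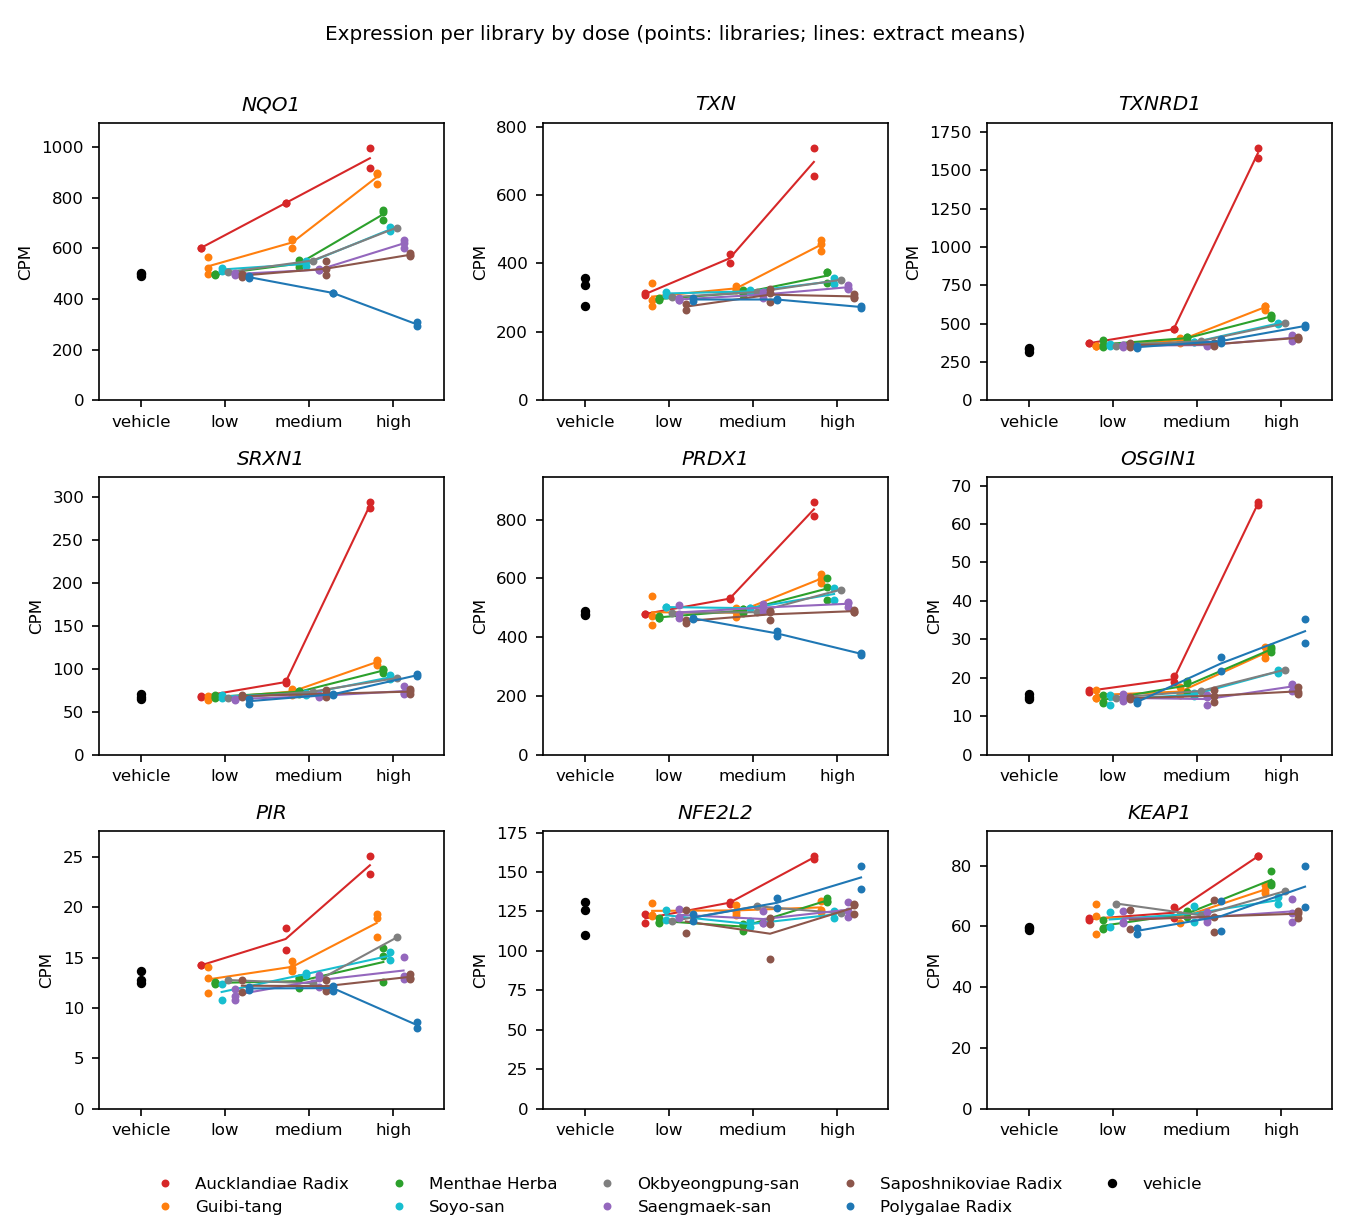
CPM of each of the 9 genes in every library (points) for the vehicle and for 8 extracts at low, medium and high dose, with lines through the extract means. At high dose NQO1, PRDX1 and PIR lie below the vehicle with Polygalae Radix (blue) and above it with Aucklandiae Radix (red), whereas TXNRD1, SRXN1 and OSGIN1 lie above it with both, TXNRD1 to 485 and 1611 CPM against 330.4 CPM in the vehicle.

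OSGIN1 (ENSG00000140961, chromosome 16, 83948282 to 83966332, plus strand) is named for oxidative stress-induced growth inhibition. It had 35.3 and 28.9 CPM in Polygalae Radix high libraries and 65.7 and 64.8 CPM in Aucklandiae Radix high libraries, against 15.7, 14.9 and 14.6 CPM in the vehicle. Menthae Herba high had 27.9, 27.6 and 26.7 CPM and Guibi-tang high 26.1, 27.9 and 25.00 CPM. These 4 groups lay above every vehicle library, and the 2 Polygalae Radix libraries differed from each other more than those of the other 3. OSGIN1 rose by 2.11 ± 0.08 SE, adjusted p 8.84e-26, with Aucklandiae Radix and by 1.08 ± 0.08 SE, adjusted p 4.01e-14, with Polygalae Radix, the second highest of the 25 group means. It also rose with Menthae Herba (0.86), Guibi-tang (0.80) and Soyo-san (0.51). Saengmaek-san (0.23, adjusted p 0.0621) and Saposhnikoviae Radix (0.12) did not pass.

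PIR (ENSG00000087842, chromosome X, 15384799 to 15493564, minus strand) encodes pirin, an iron-binding nuclear protein. It had 8.58 and 8.03 CPM in Polygalae Radix high libraries and 25.1 and 23.3 CPM in Aucklandiae Radix high libraries, against 12.5, 13.7 and 12.8 CPM in the vehicle. Guibi-tang high had 17.04, 19.3 and 18.95 CPM and Soyo-san high 14.8 and 15.6 CPM. Polygalae Radix lay below all vehicle libraries and the other 3 groups above them. PIR fell with Polygalae Radix (-0.65 ± 0.09 SE, adjusted p 1.54e-07) and rose with Aucklandiae Radix (0.90 ± 0.08 SE, adjusted p 5.35e-14) and Guibi-tang (0.51 ± 0.07 SE, adjusted p 3.96e-07). The Soyo-san value, 0.23 (adjusted p 0.041), passed narrowly. It was lost without vehicle replicate 1 (0.20, adjusted p 0.119) or 3 (0.22, adjusted p 0.0999), and without Soyo-san high replicate 1 (0.27, adjusted p 0.0887) or 2 (0.20, adjusted p 0.241). Menthae Herba high, at 12.6, 15.96 and 15.2 CPM, overlapped with the vehicle and did not pass (0.17, adjusted p 0.0673), but passed without vehicle replicate 2 (0.21, adjusted p 0.0453) or without Menthae Herba high replicate 1 (0.26, adjusted p 0.0056).

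The control genes had the narrowest spans of the 9 over the group means, although not the smallest fold change with every extract. NFE2L2 (ENSG00000116044, chromosome 2, 177227595 to 177392697, minus strand) had 139 and 154 CPM in Polygalae Radix high libraries and 159 and 160.0 CPM in Aucklandiae Radix high libraries, against 110.0, 126 and 131 CPM in the vehicle, whose replicate 1 was the lowest of the 3. Both groups lay above the vehicle, and the other high-dose means lay between 123 and 132 CPM. NFE2L2 rose by 0.38 ± 0.06 SE, adjusted p 9.02e-07, with Aucklandiae Radix and by 0.26 ± 0.06 SE, adjusted p 0.0008, with Polygalae Radix. The Polygalae Radix call was lost without its high replicate 3 (0.20, adjusted p 0.0542). The other 5 extracts did not pass, with values from 0.01 for Soyo-san to 0.11 for Menthae Herba, which passed only without vehicle replicate 3 (0.16, adjusted p 0.0481). AGPS, on the opposite strand, overlaps NFE2L2 and held counts equal to 76.9% of those of NFE2L2. AGPS was at 0.34 with Aucklandiae Radix (adjusted p 7.83e-06) and at -0.06 with Polygalae Radix (adjusted p 0.491), and its part in the NFE2L2 values was not tested.

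KEAP1 (ENSG00000079999, chromosome 19, 10486120 to 10503741, minus strand) had 79.9 and 66.4 CPM in Polygalae Radix high libraries and 83.1 and 83.1 CPM in Aucklandiae Radix high libraries, against 59.5, 58.8 and 59.9 CPM in the vehicle. Menthae Herba high had 74.3, 73.7 and 78.2 CPM and Guibi-tang high 73.6, 71.9 and 70.9 CPM. All of these libraries lay above the vehicle, and the 2 Polygalae Radix libraries lay far apart. KEAP1 rose with Aucklandiae Radix (0.48 ± 0.06 SE, adjusted p 1.11e-08), Menthae Herba (0.34 ± 0.06 SE, adjusted p 1.08e-05) and Guibi-tang (0.28 ± 0.06 SE, adjusted p 0.000272). The Polygalae Radix call, 0.30 (adjusted p 0.000274), was lost without its high replicate 2 (0.16, adjusted p 0.104). The Soyo-san call, 0.21 (adjusted p 0.0207), was lost without Soyo-san high replicate 1 (0.24, adjusted p 0.065) or 2 (0.19, adjusted p 0.15). Between the highest and lowest of the 25 group means KEAP1 spanned 1.42-fold and NFE2L2 1.44-fold, against 4.88-fold for TXNRD1, 4.79-fold for OSGIN1 and 4.68-fold for SRXN1. For NFE2L2 and KEAP1 22 of the 24 pairs of neighbouring groups overlapped.

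Okbyeongpung-san, with 1 library per dose and so no test, had 507, 552 and 682 CPM of NQO1 at low, medium and high dose. TXNRD1 had 357, 386 and 501 CPM in the same order. At high dose these 2 values lay between those of the 2 Soyo-san high libraries (667 and 683 CPM for NQO1 and 504 and 499 CPM for TXNRD1), which are of the same library set, as did SRXN1 at 89.3 CPM. PIR, at 17.02 CPM, lay above both Soyo-san libraries and was the third highest of the 25 groups. That place rests on 1 library, which lay between the 2 Aucklandiae Radix medium libraries (15.7 and 17.98 CPM).

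Whether the changes follow dose within 1 extract was asked by comparing high with low dose, which leaves out the vehicle. Of 63 tests 43 passed, 40 higher and 3 lower at high dose. Aucklandiae Radix and Menthae Herba had all 9 genes called, where 58.7% and 23.5% of all genes were called. Polygalae Radix had 8 (29.4% of all genes), Guibi-tang 8 (17.9%), Soyo-san 5 (2.49%), Saengmaek-san 3 (0.854%) and Saposhnikoviae Radix 1 (0.289%). The 3 lower calls were NQO1 (-0.70 ± 0.05 SE, adjusted p 3.28e-16), PRDX1 (-0.44 ± 0.06 SE, adjusted p 3.64e-08) and PIR (-0.53 ± 0.10 SE, adjusted p 6.50e-05), all with Polygalae Radix, where TXN did not pass (-0.11). In the same comparison OSGIN1 (1.23 ± 0.10 SE, adjusted p 1.05e-13), SRXN1 (0.57 ± 0.05 SE, adjusted p 1.68e-11) and TXNRD1 (0.48 ± 0.05 SE, adjusted p 8.58e-11) rose.

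With Polygalae Radix NFE2L2 and KEAP1 rose by 0.28 and 0.32, calls lost without Polygalae Radix high replicate 3 for NFE2L2 (0.21, adjusted p 0.061) and without replicate 2 for KEAP1 (0.18, adjusted p 0.123). With Aucklandiae Radix the rises over the low dose were 2.11 ± 0.05 SE for TXNRD1, 2.10 ± 0.05 for SRXN1 and 1.97 ± 0.09 for OSGIN1. TXN rose by 1.16, PRDX1 by 0.80, PIR by 0.76, NQO1 by 0.66, KEAP1 by 0.41 and NFE2L2 by 0.40. Guibi-tang gave 0.78 for TXNRD1, 0.73 for NQO1 and 0.58 for TXN, while NFE2L2, at 0.03 with a 95% interval of -0.09 to 0.14, did not pass. Its KEAP1 call (0.20) was lost without Guibi-tang high replicate 1 (0.19, adjusted p 0.0503) or low replicate 1 (0.14, adjusted p 0.132).

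Menthae Herba raised OSGIN1 most, by 0.94 ± 0.08 SE, adjusted p 1.52e-12, against its low dose, with TXNRD1 at 0.58, NQO1 at 0.56 and TXN at 0.30. The NFE2L2 call, 0.15 (adjusted p 0.0489), was lost whichever of the 6 Menthae Herba libraries was left out, with log2 fold changes of 0.14 to 0.16. PIR (0.23, adjusted p 0.0199) was lost without high replicate 2 (0.16, adjusted p 0.186), high replicate 3 (0.20, adjusted p 0.0912) or low replicate 2 (0.22, adjusted p 0.055). Soyo-san raised OSGIN1 (0.61), TXNRD1 (0.47), SRXN1 (0.41), NQO1 (0.39) and PIR (0.39), PIR being lost without Soyo-san high replicate 2 (0.36, adjusted p 0.0815) or low replicate 2 (0.31, adjusted p 0.237).

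Saengmaek-san raised NQO1 by 0.31 ± 0.04 SE, adjusted p 7.52e-07, with 635, 604 and 621 CPM at high against 495, 498 and 503 CPM at low dose. Its TXNRD1 call (0.19, adjusted p 0.00672) was lost without high replicate 1 (0.16, adjusted p 0.1) or low replicate 3 (0.18, adjusted p 0.0595). Its SRXN1 call (0.19, adjusted p 0.0202) was lost without high replicate 1 (0.13, adjusted p 0.23) or low replicate 1, 2 or 3 (0.20, adjusted p 0.0798, 0.18, adjusted p 0.0896 and 0.19, adjusted p 0.0663). Saposhnikoviae Radix, whose low dose keeps 2 libraries, had NQO1 at 569, 576 and 581 CPM at high against 488 and 498 CPM at low dose (0.22 ± 0.04 SE, adjusted p 0.0033), a call lost without low replicate 1 (0.21, adjusted p 0.202). With the outlying library that value was -0.20, adjusted p 0.193.

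At medium dose against the vehicle 18 of 63 tests passed. Aucklandiae Radix had 6 genes called (13.6% of all genes), Polygalae Radix 4 (10.2%), Menthae Herba 3 (10.1%), Guibi-tang 2 (11%), and Saposhnikoviae Radix (3.69%), Saengmaek-san (11.4%) and Soyo-san (8.55%) 1 each. TXNRD1 was higher with all 7, by 0.13 with Saengmaek-san to 0.49 with Aucklandiae Radix. NQO1 was already lower with Polygalae Radix (-0.23, adjusted p 0.00014), as was PRDX1 (-0.22, adjusted p 0.00269), while OSGIN1 was higher (0.65, adjusted p 7.41e-07). With Aucklandiae Radix NQO1 stood at 0.65, TXN at 0.36 and PIR at 0.38, all called. Against the low dose 7 medium-dose tests passed: NQO1 (-0.20) and OSGIN1 (0.80) with Polygalae Radix (4.95% of all genes), NQO1 (0.37), TXN (0.42), TXNRD1 (0.32) and SRXN1 (0.32) with Aucklandiae Radix (2.6%), and NQO1 (0.24) with Guibi-tang (0.118%). With Menthae Herba 0.0294% of all genes were called in this comparison.

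At low dose against the vehicle 5 of 63 tests passed. They were NQO1 at 14.8 µg/mL Aucklandiae Radix, with 603 and 603 CPM against 504, 497 and 493 CPM in the vehicle (0.28 ± 0.04 SE, adjusted p 6.12e-05), and TXNRD1 with the same extract (0.17). TXNRD1 was also called higher with Menthae Herba (0.15) and Soyo-san (0.13), and TXN lower with Saposhnikoviae Radix (-0.24). The shares of all genes called were 4.97% for Aucklandiae Radix, 9.45% for Menthae Herba, 9.8% for Soyo-san and 11.5% for Saposhnikoviae Radix. They were 9.98% for Polygalae Radix, 18% for Saengmaek-san and 6.05% for Guibi-tang. Without vehicle replicate 3 the 5 became 1, and without vehicle replicate 1 they became 8. In the order of means over low, medium and high dose, TXNRD1 and SRXN1 went up at each step with all 8 extracts. NQO1 went up with 7 and down with Polygalae Radix. OSGIN1 and KEAP1 went up at each step with 7, TXN with 6, PRDX1 and PIR with 5, and NFE2L2 with 3. These are orders of means and not tests, and Okbyeongpung-san has 1 library per dose. At medium against low dose TXNRD1 and SRXN1 each passed with 1 of the 7 extracts tested. Libraries of neighbouring doses could overlap, as for TXNRD1 with Saengmaek-san, at 347 to 363 CPM at low and 353 to 366 CPM at medium dose.

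Pairs of extracts of 1 library set were compared directly at high dose, without the vehicle. Polygalae Radix (380 µg/mL) and Aucklandiae Radix (370 µg/mL) are of 1 set, and their doses differ slightly. With Polygalae Radix 8 of the 9 genes were lower than with Aucklandiae Radix, where 58.3% of all genes differed and 29.4% were lower. TXNRD1 differed by -1.73 ± 0.05 SE, adjusted p 7.34e-30, NQO1 by -1.67 ± 0.05, SRXN1 by -1.65 ± 0.05, PIR by -1.55 ± 0.09, TXN by -1.35 ± 0.08, PRDX1 by -1.28 ± 0.06 and OSGIN1 by -1.03 ± 0.09 (SE). KEAP1 (-0.19, adjusted p 0.0227) passed, but not without Polygalae Radix high replicate 3 (-0.05, adjusted p 0.625), Aucklandiae Radix high replicate 2 (-0.19, adjusted p 0.0797) or replicate 3 (-0.19, adjusted p 0.0667), and with scaling by total counts it was at 0.0041. NFE2L2 did not pass (-0.12, 95% interval -0.26 to 0.02), and was at 0.069 with scaling by total counts.

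Menthae Herba against Saposhnikoviae Radix, both at 500 µg/mL, had 7 genes higher, where 16.1% of all genes differed and 8.08% were higher. OSGIN1 differed most, with 27.9, 27.6 and 26.7 CPM with Menthae Herba and 17.5, 16.2 and 15.7 CPM with Saposhnikoviae Radix (0.74 ± 0.08 SE, adjusted p 2.89e-09). TXNRD1 was at 0.43, SRXN1 at 0.42, NQO1 at 0.35, TXN at 0.26, KEAP1 at 0.23 and PRDX1 at 0.21, all called. PIR (0.16, 95% interval 0.01 to 0.31) and NFE2L2 (0.05, -0.06 to 0.16) did not pass, PIR passing only without Menthae Herba high replicate 1 (0.25, adjusted p 0.0172). Saengmaek-san against Guibi-tang, both formulas at 500 µg/mL, had 7 genes lower, where 12.7% of all genes differed and 6.37% were lower. NQO1 had 635, 604 and 621 CPM with Saengmaek-san and 855, 896 and 893 CPM with Guibi-tang (-0.51 ± 0.04 SE, adjusted p 3.68e-14). TXNRD1 was at -0.57, OSGIN1 at -0.57, SRXN1 at -0.54, TXN at -0.46, PIR at -0.42 and PRDX1 at -0.22. KEAP1 (-0.15, -0.27 to -0.03) and NFE2L2 (-0.02, -0.13 to 0.10) did not pass, KEAP1 passing only without Saengmaek-san high replicate 1 (-0.20, adjusted p 0.0437) and when only these libraries were fitted.

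**Figure D3:**
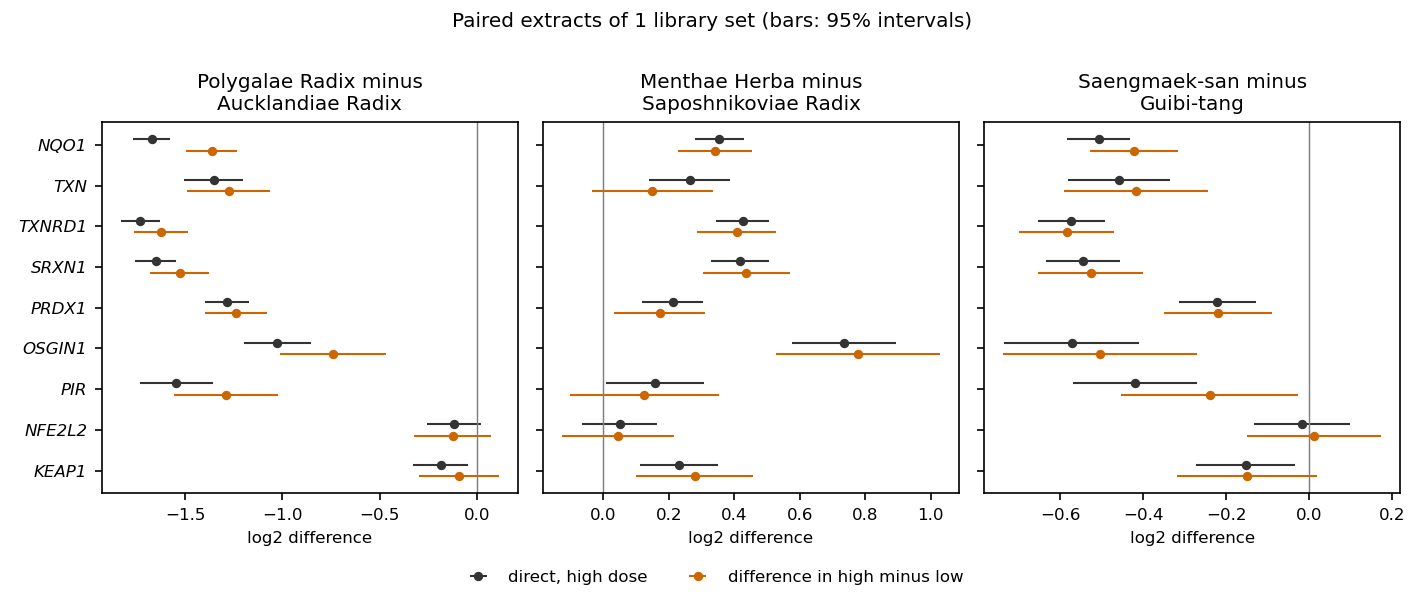
Log2 differences with 95% intervals between 3 pairs of extracts of 1 set, directly at high dose (black) and as the difference of their high minus low changes (orange). For Polygalae Radix minus Aucklandiae Radix 7 genes lie between -1.73 and -0.74 in both measures, while NFE2L2 and KEAP1 are closer to 0, KEAP1 at -0.19 and called lower at high dose.

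The change over dose itself was also compared within each pair. Between Polygalae Radix and Aucklandiae Radix 7 genes differed in their high minus low change (46.6% of all genes did), all lower with Polygalae Radix. The change of TXNRD1 differed by -1.63 ± 0.07 SE, adjusted p 3.29e-23, that of NQO1 by -1.36, and that of OSGIN1 least, by -0.74 ± 0.14 SE, adjusted p 1.24e-05. Between Menthae Herba and Saposhnikoviae Radix 4 genes differed (3.59% of all genes), namely OSGIN1 (0.78), SRXN1 (0.44), TXNRD1 (0.41) and NQO1 (0.34). Between Saengmaek-san and Guibi-tang 6 genes differed (7.21% of all genes), among them TXNRD1 (-0.58), SRXN1 (-0.53) and OSGIN1 (-0.50). The PRDX1 call (-0.22, adjusted p 0.0272) was lost without Saengmaek-san high replicate 2 (-0.21, adjusted p 0.0611) or low replicate 3 (-0.18, adjusted p 0.098), and without Guibi-tang high replicate 3 (-0.20, adjusted p 0.0823), low replicate 1 (-0.16, adjusted p 0.116) or low replicate 2 (-0.20, adjusted p 0.06). NFE2L2 and KEAP1 did not pass in any of the 3, although KEAP1 for Menthae Herba and Saposhnikoviae Radix (0.28, adjusted p 0.0677) passed without the low-count filter, in the fit of those libraries alone and with the outlying library.

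The other genes of the pathway were described from lists, also chosen with earlier results known. With Aucklandiae Radix high 62% of all genes were called against the vehicle, 31% higher. With Polygalae Radix high 36.5% were, 16.8% higher and 19.6% lower. Guibi-tang high had 29.4% called (14.7% higher) and Menthae Herba high 28.2% (13.7% higher). Soyo-san high had 17.7% (8.44% higher), Saengmaek-san high 12% (5.79% higher) and Saposhnikoviae Radix high 10.2% (5.18% higher). These shares apply to every list below. Of 27 NRF2 targets other than the 9 genes, 23 were higher and 1 lower with Aucklandiae Radix high against the vehicle (median log2 fold change 1.35, against -0.02 over all genes). The aldo-keto reductase AKR1C1 (3.58 ± 0.09 SE), the heme oxygenase HMOX1 (2.36 ± 0.07 SE), SLC7A11, the cystine importer (2.21 ± 0.12 SE), and FTL, the ferritin light chain (2.08 ± 0.06 SE), rose most. Guibi-tang had 25 higher and 1 lower (median 0.57), led by AKR1C2 (2.74), AKR1C1 (2.26), AKR1B10 (1.91) and AKR1C3 (1.90), whose near-identical copies can share reads. Menthae Herba had 21 higher and 1 lower (median 0.35), Soyo-san 15 higher (0.24), Saengmaek-san 12 higher (0.07) and Saposhnikoviae Radix 9 higher (0.09), against medians between -0.02 and 0.00 over all genes.

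With Polygalae Radix the list went both ways, with 9 higher, 11 lower and 7 not passed (median -0.03, against -0.01 over all genes). Among the largest falls were TKT, the transketolase of the pentose phosphate pathway (-0.998 ± 0.05 SE) and the NADPH-making isocitrate dehydrogenase IDH1 (-0.86 ± 0.04 SE). SLC7A11 rose by 0.89 ± 0.12 SE. Chosen after their values were seen, the pentose phosphate genes TALDO1 (-0.72) and PGD (-0.65) also fell, and GCLC (0.76) and GCLM (0.40), which make glutathione, and the ferritin genes FTH1 (0.69) and FTL (0.59) rose. TKT and TALDO1 were at 0.02 and 0.00 with Aucklandiae Radix, and neither was called there. In the same Polygalae Radix libraries 9 of 12 colon epithelium markers were lower (median -0.75), with the brush-border gene VIL1 at -1.59 and the keratin KRT8 at -0.92 (2 examples chosen after their values were seen). The part of these markers in the results was not tested.

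**Figure D4:**
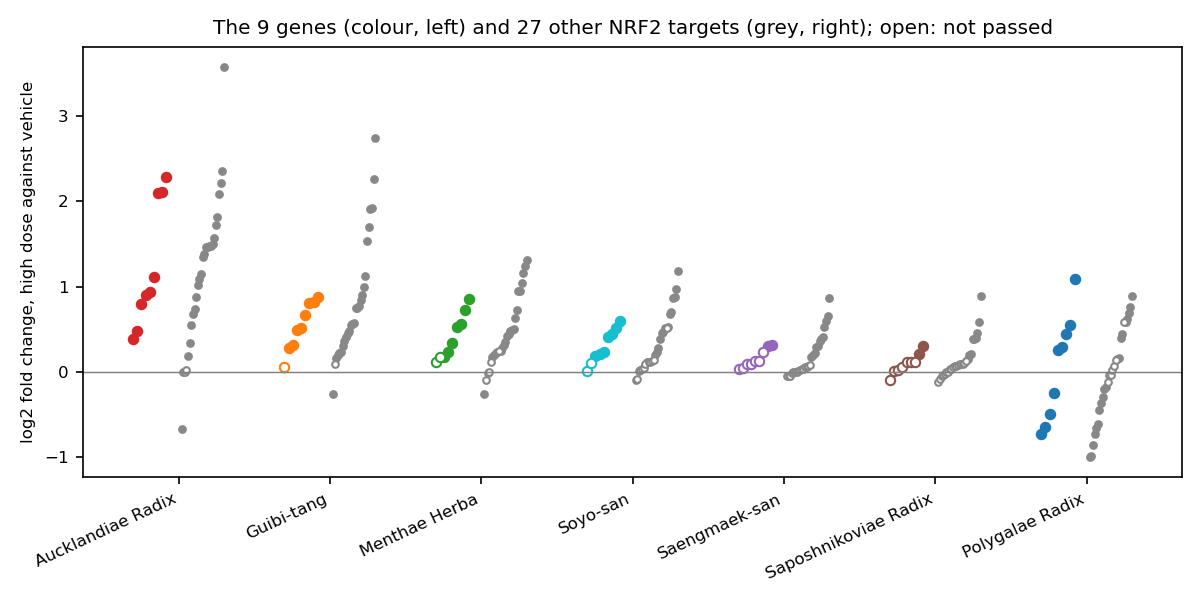
Log2 fold changes at high dose against the vehicle for the 9 genes (coloured, left in each column) and 27 other NRF2 targets (grey, right), with open points where the adjusted p was 0.05 or more. Both sets lie mostly above 0 for Aucklandiae Radix and Guibi-tang and on both sides of 0 for Polygalae Radix, where the targets had 9 higher and 11 lower.

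Of 24 tested genes of the thioredoxin and peroxiredoxin system other than the 9 (25 listed), Aucklandiae Radix high had 9 higher and 11 lower than the vehicle (median -0.10). With that extract 62% of all genes were called and 31% were higher. TXNIP, which binds and inhibits thioredoxin, fell by 2.22 ± 0.10 SE, and the sestrin SESN1 by 1.59, while the glutaredoxins GLRX and GLRX2 rose by 1.12 and 1.03. Polygalae Radix had 2 higher and 15 lower (median -0.24), among them MSRB2, which repairs oxidised methionine (-0.91), the peroxiredoxin PRDX2 (-0.87), MSRA (-0.75) and the mitochondrial thioredoxin reductase TXNRD2 (-0.64). TXNRD2 was at -0.36 and PRDX2 at -0.69 with Aucklandiae Radix (chosen after the values were seen), both called lower, beside the rises of TXNRD1 and PRDX1. Guibi-tang had 5 higher and 9 lower (median -0.14), with TXNIP at -0.86, and Menthae Herba 5 higher and 7 lower (-0.02). Soyo-san had 3 higher and 6 lower (-0.06), Saengmaek-san 2 and 2 (-0.02), and Saposhnikoviae Radix 4 lower (-0.08). The shares of all genes called with Soyo-san, Saengmaek-san and Saposhnikoviae Radix were 17.7%, 12% and 10.2%.

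Among 18 other genes of NRF2 control, Aucklandiae Radix high had 13 higher and 2 lower (median 0.44). Across all genes 62% were called with this extract, 31% higher. SQSTM1, the autophagy receptor that can sequester KEAP1, rose by 2.25 ± 0.05 SE, the small MAF gene MAFF by 1.49 ± 0.09 SE, and BACH1, a repressor that competes with NRF2 at its sites, by 1.01 ± 0.09 SE. NFE2L3, a relative of NRF2, fell by 1.12 ± 0.05 SE. Polygalae Radix had 6 higher and 4 lower (median 0.12), with SQSTM1 at 1.25, MAFF at 0.61, BACH1 at 0.60 and DPP3, which binds KEAP1, at -1.15. DPP3 was at 0.23 with Aucklandiae Radix, called higher and named for the contrast. Menthae Herba had 8 higher and 2 lower, Guibi-tang 5 and 2, Soyo-san 4 higher, Saengmaek-san 3 higher and 2 lower, and Saposhnikoviae Radix 1 and 1, with medians of 0.02 to 0.08. In the same order, 28.2%, 29.4%, 17.7%, 12% and 10.2% of all genes were called with these extracts. BACH1 was called higher with all 7 extracts, from 0.29 with Saposhnikoviae Radix upward.

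NQO1 is also a target of the aryl hydrocarbon receptor, so the 6 tested of 7 listed targets of that receptor were set beside it. At high dose against the vehicle CYP1A1, the receptor's best-known target, rose with 6 extracts, by 3.49 ± 0.20 SE with Menthae Herba, 3.41 with Aucklandiae Radix, 2.54 with Guibi-tang, 2.43 with Saposhnikoviae Radix, 2.07 with Soyo-san and 1.28 with Saengmaek-san. The counts of CYP1A1 were low, at 208, 224 and 177 with Menthae Herba against 25, 18 and 16 in the vehicle. With Polygalae Radix it did not pass (-0.25), and of the list TIPARP was higher (0.40) and ALDH3A1 lower (-1.04). The list had 4 higher and 2 lower with Aucklandiae Radix, 6 higher with Guibi-tang, and 5 higher with each of Menthae Herba, Saposhnikoviae Radix, Saengmaek-san and Soyo-san. Of all genes 31% were higher with Aucklandiae Radix, 14.7% with Guibi-tang and 5.18% to 13.7% with the latter extracts. Of 9 other quinone and carbonyl reductases 7 were higher and 1 lower with Aucklandiae Radix (median 0.37), with CBR3 at 4.40 (92 and 69 counts with Aucklandiae Radix against 6, 4 and 3 counts in the vehicle), CBR1 at 1.15 and NQO2, the close relative of NQO1, at 0.97. With Polygalae Radix 7 of the 9 were lower (median -0.23), including the reductases CYB5R3 (-0.51), POR (-0.48), CRYZ (-0.39) and NQO2 (-0.23). Guibi-tang had 3 higher and 1 lower, Menthae Herba 2 and 2, Soyo-san 1 higher and 2 lower, and Saengmaek-san 1 lower. In that order, 29.4%, 28.2%, 17.7% and 12% of all genes were called with these extracts.

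Markers of other cell types were set beside these results. The summed level of the 8 blood cell markers was 47.1 to 49.9 CPM in Aucklandiae Radix high libraries and 9.68 to 13.2 CPM in the vehicle. CD68, a lysosomal protein, made up most of this, and rose by 2.71. CD14, a monocyte marker and the other of the 2 tested, fell by 1.29 (adjusted p 2.75e-09), and PTPRC, CD3E, HBB and LCP1 stayed at or under 0.13 CPM in all 59 libraries. The 8 fibroblast markers summed to 2.96 to 3.56 CPM with Aucklandiae Radix high and 2.29 to 3.23 CPM in the vehicle. The 8 hepatocyte markers, with ALB and APOA2 at 0 CPM in the vehicle, summed to 281 to 291 CPM with Aucklandiae Radix high and 332 to 377 CPM in the vehicle, nearly all of it SERPINA1. The 12 colon epithelium markers summed to 13405 to 13664 CPM with Aucklandiae Radix high and 12001 to 14393 CPM in the vehicle. Most of this sum was the keratins KRT8 and KRT18, with vehicle means of 7397 and 4380 CPM. Neither was called with Aucklandiae Radix (0.05 and -0.04). Of the 12 markers 2 were called higher and 7 lower with that extract (median log2 fold change -0.58). The largest falls were in the intestinal surface antigen GPA33 (-3.96), CDX1 (-3.86), the mucin MUC2 (-2.996) and CDX2 (-2.02). Their vehicle means ran from 0.918 CPM (CDX1) to 22.3 CPM (MUC2). KRT20 and CEACAM5 rose, each by 1.43. At high dose against the vehicle these 12 markers also had 2 higher and 8 lower with Guibi-tang (median -0.24), where GPA33 was at -1.33 and MUC2 at -0.85. Menthae Herba had 2 higher and 6 lower (median -0.27), with MUC2 at -1.86 and GPA33 at -1.05. The colon markers named here for these extracts were chosen after their values were seen. Soyo-san had 1 higher and 3 lower, and Saengmaek-san and Saposhnikoviae Radix 3 lower each. Across all genes 62% were called with Aucklandiae Radix, 29.4% with Guibi-tang and 28.2% with Menthae Herba. With Soyo-san, Saengmaek-san and Saposhnikoviae Radix 17.7%, 12% and 10.2% were. The part of these markers in the results of the 9 genes was not tested.

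Likeness of pattern was measured as Pearson's r of group mean log2 CPM over the 25 groups, among 10577 genes with a mean of at least 5 CPM. It is a description, since groups share library sets, extracts and doses. TXNRD1 and SRXN1 were each other's closest gene (r = 0.995, and 0.981 over the 22 groups without Aucklandiae Radix), followed for both by GPAT3 and by GSR, which recharges glutathione (0.987). Among the genes closest to NQO1 were ANXA1 (0.953) and KLK6 (0.947). TXN was closest to GJB2 (0.984), PTGR1 and PROCR, and PRDX1 to SPCS2 (0.972), PSMD13 and ACSL5. OSGIN1 was closest to NAA20 (0.974), GTF2H1 and HMOX1, and PIR to ABCB6 (0.948), ANXA1 and NQO1. KEAP1 was closest to GCLC (0.939), AMIGO2 and NIP7, and NFE2L2 to DNTTIP2 (0.913), RAP1B and EAF1. These places depend in part on Aucklandiae Radix. Over the 22 groups without it TXNRD1 stayed at place 1 for SRXN1, and GJB2 at place 1 for TXN. SRXN1 was then at place 2 for TXNRD1, SPCS2 at 10 for PRDX1 and HMOX1 at 14 for OSGIN1. For NFE2L2, DNTTIP2 was at place 12 (0.829) and EAF1 at 16. Among the 7 genes other than NFE2L2 and KEAP1, r ran from 0.42 to 0.995 with a median of 0.83 over 21 pairs, and from -0.044 with a median of 0.71 without the Aucklandiae Radix groups.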

How the data were processed

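RNA from HT29 cells was sequenced as directional, 100 bp paired-end mRNA libraries on an MGI platform, per the labels' protocols. The authors' deposited table holds expected counts per gene for 60 libraries. FastQC 0.11.9, Trim Galore 0.6.5, STAR 2.7.3a and RSEM 1.3.3 are named in the submitters' processing notes with build hg38. For the annotation release and the strand option of the counting nothing is stated in the labels or notes used here. Expected counts that RSEM gives need not be whole (10.04% were not), and it shares reads between similar genes by estimate, so values of near-identical genes are less certain. No 2 libraries held identical columns.

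The expected counts were rounded and tested with edgeR 4.0.16 in R 4.3.3 (quasi-likelihood test, TMM factors, filterByExpr by group, 1 fit of 56 libraries in 22 groups with 34 residual degrees of freedom). P-values were adjusted by Benjamini-Hochberg over the 16978 genes tested in each comparison and called under 0.05. Okbyeongpung-san, with 1 library per group, was scaled and not fitted. CPM use TMM-scaled totals, log2 CPM a prior count of 2, and fitted folds the default prior of edgeR. The library labelled Saposhnikoviae Radix low replicate 2 was left out. Comparisons were each dose against vehicle, high and medium against low dose, 3 pairs of extracts of 1 set at high dose, and the difference of their high minus low changes. Alternatives were DESeq2 1.42.0, RLE factors, total counts, no filter, the compared groups alone, a replicate block, the outlying library kept and each library left out. The scripts were tested on simulated data. Gene positions are from GENCODE 29 (94.0% of the table's genes matched), and promoters from RefSeq (GRCh38.p14). Symbols came from a separate list of gene names, which gave one to 56558 of the 60675 genes.

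The 9 genes and the gene lists were chosen with earlier results of these data known. Of each list, up to 4 genes with the largest changes called at high dose against the vehicle were named per extract, and others are marked as chosen after their values were seen. Of the genes so named, 1 is not reported here, but stays in its list's counts and medians. Totals of 18690501 to 36796414 expected counts per library set the precision, least for OSGIN1 and PIR. The wortmannin control named in the design text is not analysed here.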

Additional observations from a re-analysis of the deposited data

Results flagged for a closer look

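The high minus low change of 17 gene and pair combinations differed between 2 extracts of the same library set (edgeR quasi-likelihood test of the difference of the changes, adjusted p under 0.05). For Polygalae Radix minus Aucklandiae Radix the log2 difference was -1.363 for NQO1, -1.276 for TXN, -1.626 for TXNRD1, -1.528 for SRXN1, -1.238 for PRDX1, -0.7401 for OSGIN1 and -1.29 for PIR. NQO1, PRDX1 and PIR changed in opposite directions with these extracts, whereas TXNRD1, SRXN1 and OSGIN1 rose with both and less with Polygalae Radix.

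For Menthae Herba minus Saposhnikoviae Radix the difference was 0.3418 for NQO1, 0.4072 for TXNRD1, 0.4371 for SRXN1 and 0.7784 for OSGIN1. For Saengmaek-san minus Guibi-tang it was -0.4219 for NQO1, -0.4182 for TXN, -0.5848 for TXNRD1, -0.527 for SRXN1, -0.2197 for PRDX1 and -0.5045 for OSGIN1. No group of 4 or more libraries was available for a check of single libraries against the rest of their group.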

How the results depend on the processing

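Of 180 fold changes of the 9 genes, 178 kept direction and call with RLE factors, 166 with total counts, 177 without the low-count filter, 167 when only the compared groups were fitted and 178 with DESeq2. With the outlying library kept, 114 did. Leaving out 1 library kept 1018 of 1089 values, with 44 calls lost, 9 gained and 18 directions turned. Deviations from group means had a median correlation of 0.0065 between same-numbered libraries of a set, with 3 of 121 pairs over 0.1. Between libraries of a set with other numbers it was -0.0014, with 0 of 206 pairs over 0.1. The 2 deviations of a 2-library group mirror each other, so these values do not settle whether replicate numbers pair the libraries. A replicate block by number kept 178 of 180 values and gained 2 calls. Scaling by total counts moved the median of all genes to 0.13 for Polygalae Radix high against the vehicle and to -0.11 for Aucklandiae Radix high against low, and the causes of changed values were not tested. Levels of OSGIN1 and PIR rest on the lowest counts.

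With the outlying library kept, the genes called numbered 27 at high, 2 at medium dose against the vehicle, 3 at medium against low dose, 11 between pairs and 11 between their changes. Of all genes, 0.287% to 39.6% were then called per comparison at high dose and 0.0644% to 0.866% at medium dose against the vehicle, and without that library 10.2% to 62% and 3.69% to 13.6%. With it the shares were 0% to 25.5% at medium against low dose, 2.26% to 35.8% between pairs and 0.907% to 22.2% between their changes, and without it 0% to 4.95%, 12.7% to 58.3% and 3.59% to 46.6% in these 3 kinds of comparison. High against low dose then gave 5 for Saposhnikoviae Radix (27.5% of all genes), 4 for Menthae Herba (5.26%), 0 for Saengmaek-san (0.0351%) and 0 for Soyo-san (0.0702%), and high dose against the vehicle gave 0 for Saposhnikoviae Radix (0.287%), 0 for Saengmaek-san (0.41%) and 0 for Soyo-san (0.872%). With only the compared groups the counts were 8 at medium (0.0326% to 3.18% of all genes) and 0 at low dose against the vehicle (0.0451% to 6.59%), 1 for Saengmaek-san high against low (0.981%) and 4 for Soyo-san high against the vehicle (2.04%). Without the filter 2 were called at low dose against the vehicle (3.99% to 8.23%). With total counts Saposhnikoviae Radix high against low gave 0 (0.336%), Saengmaek-san high against the vehicle 4 (12.9%) and high against low 1 (1.08%). Saposhnikoviae Radix high against low gave 2 with the replicate block by set and number (0.436%) and 2 with DESeq2 (0.348%). Leaving out 1 library gave 1 to 8 at low dose against the vehicle, 2 to 4 for Saposhnikoviae Radix and 4 to 7 for Soyo-san at high dose against the vehicle, and 0 to 1 for Saposhnikoviae Radix and 1 to 3 for Saengmaek-san at high against low.

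Beside these counts of 0 from edgeR stand the genes at an unadjusted p under 0.05. With the outlying library kept they numbered 0 for Saposhnikoviae Radix, 1 for Saengmaek-san and 6 for Soyo-san at high dose against the vehicle, and 2 for Saengmaek-san and 4 for Soyo-san at high against low. They numbered 2 for Saposhnikoviae Radix high against low with total counts, 3 without its low replicate 1, and 5 at low dose against the vehicle with only the compared groups. DESeq2, run without the outlying library, called 2 for Saposhnikoviae Radix, 2 for Saengmaek-san and 6 for Soyo-san at high dose against the vehicle, 2, 3 and 5 for these extracts at high against low, and 7 at low dose against the vehicle.

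With the outlying library kept, Saposhnikoviae Radix high against low turned to -0.20 for NQO1, -0.30 for TXN, -0.40 for PRDX1, -0.53 for OSGIN1 and -0.13 for KEAP1, and the Menthae Herba minus Saposhnikoviae Radix change of NFE2L2 to -0.044. With total counts NFE2L2 turned to -0.012 for Soyo-san high against low, and for Polygalae Radix against Aucklandiae Radix NFE2L2 to 0.069 and KEAP1 to 0.0041 at high dose, and to 0.0497 and 0.085 in the change. The Saengmaek-san minus Guibi-tang change of NFE2L2 turned to -0.0097. Leaving out 1 library turned values that had not passed. At high dose against the vehicle PIR ran from -0.015 to 0.049 with Saposhnikoviae Radix and TXN from -0.069 to 0.11 with Saengmaek-san. NFE2L2 ran from -0.012 to 0.11 with Saposhnikoviae Radix, -0.027 to 0.097 with Saengmaek-san, -0.011 to 0.11 with Guibi-tang and -0.063 to 0.061 with Soyo-san. At high against low dose KEAP1 ran from -0.024 to 0.12 with Saposhnikoviae Radix and NFE2L2 from -0.026 to 0.048 with Soyo-san. NFE2L2 ran from -0.047 to 0.0087 for Saengmaek-san against Guibi-tang. In the difference of changes KEAP1 ran from -0.23 to 0.042 for Polygalae Radix and Aucklandiae Radix, and NFE2L2 from -0.044 to 0.14 for Menthae Herba and Saposhnikoviae Radix and -0.018 to 0.037 for Saengmaek-san and Guibi-tang.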

Other observations

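The outlying library, labelled Saposhnikoviae Radix low replicate 2, was left out of the report's comparisons, and its levels are given here as values. It had 1008 CPM of NQO1, 585 CPM of TXN and 1031 CPM of PRDX1, while replicates 1 and 3 had 488 and 498 CPM of NQO1, 265 and 283 CPM of TXN and 449.9 and 459.7 CPM of PRDX1. OSGIN1 was at 43.6 CPM in it and 14.9 and 14.4 CPM in the other two. TXNRD1 and SRXN1 went the other way, at 95.6 and 27.05 CPM in it, while the other two had 372 and 351 CPM of TXNRD1 and 69.2 and 67.1 CPM of SRXN1. A TXNRD1 level that low was in none of the other 59 libraries, whose lowest was 316 CPM.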
